A study of Mus musculus with 12 samples.

Results

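The proteasome genes described here are the genes of the mouse proteasome's core, caps, activators and assembly factors, found by their symbols. A gene was taken when its symbol begins with Psm, a letter from a to g and a digit. Psmb8, Psmb9 and Psmb10 of the immunoproteasome were left out. The rule found 47 of the 21960 genes listed. By known role they are 7 alpha subunits and 7 beta subunits of the 20S core, 2 tissue-specific core subunits, 6 ATPases and 11 non-ATPase subunits of the 19S cap, 6 activators or regulators, 7 assembly factors and Psmc3ip. The 6 activators or regulators, called activators for short in places below, include the regulator Psmf1 and Psme2b, a near copy of Psme2. Psmc3ip is a meiotic recombination factor and not a part of the proteasome. It was found by its symbol and is counted among the 45 genes tested.

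The data are RNA sequencing of 12 whole mammary tumors from PyMT mice, 3 in each of 4 treatment groups. The authors deposited log2(TPM + 1), where TPM is a transcript level scaled for gene length and for the library's total. In single tumors the listed values added up to 609418 to 725506 TPM, and the depth of each library is unknown because no read counts were given. The mice were female, of the C57BL/6 strain, and carried the polyoma middle T antigen under the MMTV promoter. That promoter drives the oncogene mainly in mammary epithelium, so the tumors arise from these cells in every group, controls included. Ages at sampling were not stated. Mice of the IgG1 group received the isotype antibody alone and mice of the anti-PD-1 group the antibody against PD-1 alone. In both, treatment began at a tumor diameter of 0.6 cm, with a first dose of 20 mg/kg and later doses of 10 mg/kg up to day 18. Mice of the DOX/IgG1 and DOX/anti-PD-1 groups received doxorubicin (DOX) at 5 mg/kg and the respective antibody at 10 mg/kg a day later, in weekly rounds for 5 weeks from a diameter of 1 cm. The sample labels give weekly treatment for 5 weeks for all groups. Doxorubicin therefore cannot be told apart from starting size, first antibody dose or schedule. The labels do not say that each tumor came from a separate mouse, so p-values here measure the spread between tumors.

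The proteasome is the cell's main machine for degrading proteins marked with ubiquitin. Its barrel-shaped 20S core is built of rings of alpha subunits, which gate the entry, and rings of beta subunits, some of which cut proteins. The 19S cap binds ubiquitin chains, removes them and unfolds the substrate with a ring of ATPases, while other activators open the core without ubiquitin. Dividing tumor cells depend on the complex, and cells short of proteasome activity are known to raise its genes together through the transcription factor Nfe2l1.

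Before the results, the tumors themselves were compared over the 14735 genes tested. DOX/IgG1 replicate 1 and DOX/anti-PD-1 replicate 3 stood apart. Their median correlations with the other tumors were 0.884 and 0.888, against 0.901 to 0.924 for the remaining 10. On the first principal component (19.4% of variance) DOX/IgG1 replicates 2 and 3 and DOX/anti-PD-1 replicate 3 had loadings of 0.46, 0.48 and 0.42, while DOX/IgG1 replicate 1 and IgG1 replicate 1 both had -0.36. DOX/IgG1 replicate 1 also carried the second component (14.99% of variance) with a loading of 0.87, and 8104 of its genes were listed at 0. The column heading of that tumor's file contains the word test, and the headings of the DOX/anti-PD-1 files end differently from all others, with no meaning stated. Each comparison was repeated without each of its tumors in turn. Comparisons that hold both tumors that stood apart were also run without both together. The ending of the DOX/anti-PD-1 headings covers that whole group, so leaving out tumors cannot separate it from the treatment. The labelled tissue matched its markers: Epcam reached at least 418 TPM, Krt8 at least 230.5 TPM and Krt18 at least 376 TPM in every tumor.

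Nearly all of the proteasome genes were well expressed. On the TPM scale, 38 genes averaged 20 TPM or more over the 12 tumors, 7 averaged less, and Psma8 and Psmb11 stayed under 1 TPM. Psme1, a subunit of the PA28 activator, led with a mean of 563 TPM, followed by its partner Psme2 at 212 TPM, the 19S scaffold Psmd2 at 196 TPM and the core subunit Psma4 at 187 TPM. Of the 6 roles with genes tested, assembly factors had the lowest sums, with gene means from 33.1 TPM for Psmd5 down to 7.08 TPM for Psmg3. The coefficient of variation over the 12 tumors had a median of 23.2% for the 45 genes tested, from 14.4% for Psmd11 to 63.1% for Psmg3, and 40 genes were under 40%. Neighbours in this order mostly did not differ beyond their spread: the ranges of Psmc6 (80.7 to 160 TPM), Psmd14 (89.2 to 163 TPM) and Psmd11 (91.4 to 150 TPM) almost coincide.

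**Figure D1:**
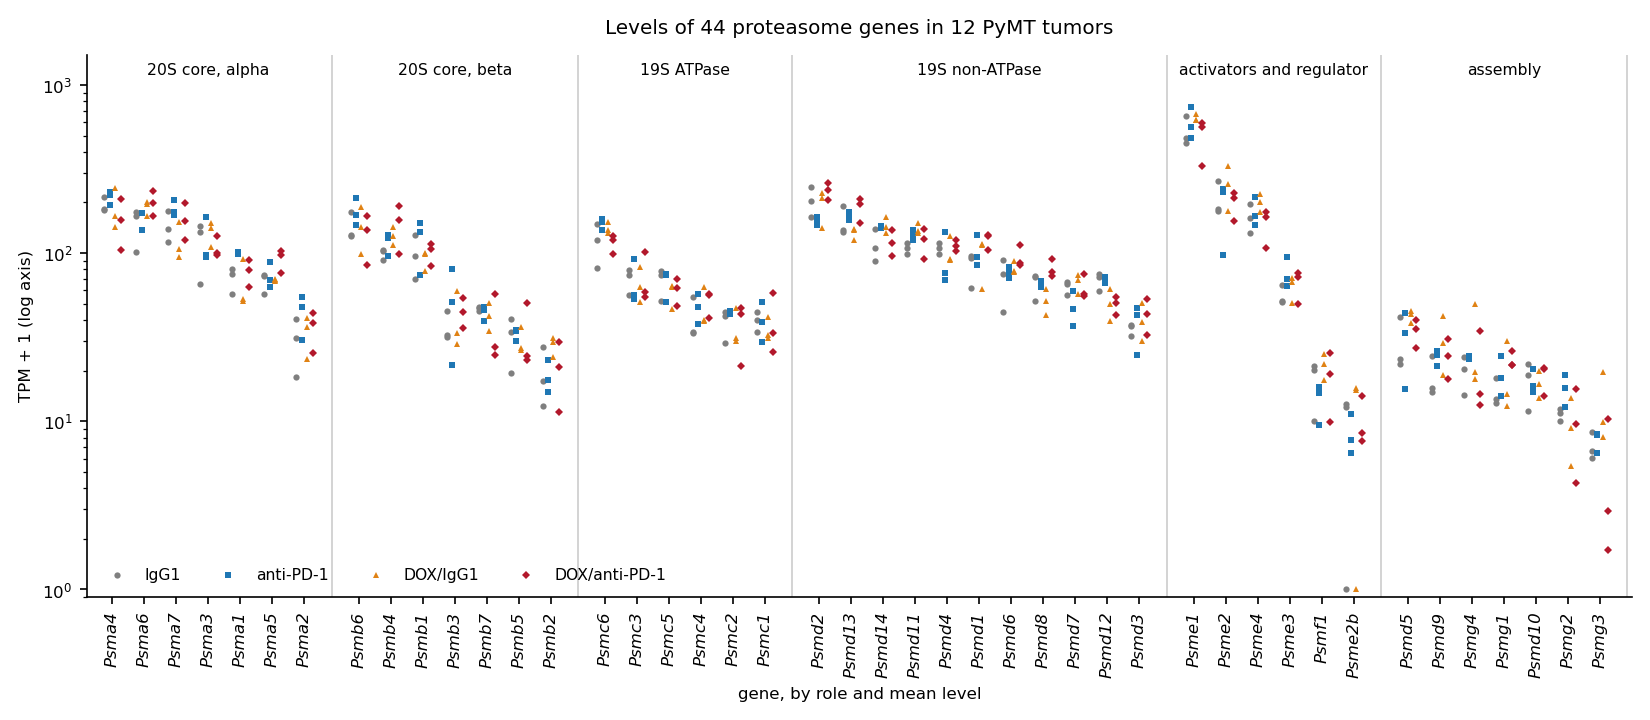
Each point is a gene's TPM + 1 in 1 tumor (log axis), with genes ordered by role and mean level and symbols giving the treatment group. Psme1 stands at the top, assembly genes lie low, and Psme2b falls to the axis in 2 tumors where it is listed at 0.

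Within groups, the genes were about as variable as other genes of their level. The SD within groups had a median of 0.35 on the log2 scale, against 0.36 for 3698 genes of like level and 0.48 for all genes tested. The share of variance that lay between the 4 groups had a median of 29.8%, against 27.4% for all genes tested and 26.5% for those of like level. With so few tumors per group, this share is well above 0 even where groups do not differ. By role this share was 49.6% for 19S non-ATPase genes, 38.5% for alpha, 30.8% for assembly, 25.9% for activators, 23.4% for beta and 14.2% for 19S ATPase genes. Psmd12 (67.6%) and Psmd8 (63.7%), both 19S non-ATPase genes, had the highest shares. Psmc3 (2.03%) and Psmb5 (2.63%) had the lowest.

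The summed level of each role in each tumor shows how evenly the complex as a whole was expressed. Alpha subunits summed to 676, 810.4 and 801 TPM with IgG1, 853, 926 and 896 with anti-PD-1, 762, 766 and 828 with DOX/IgG1 and 852, 853 and 763 with DOX/anti-PD-1, so every anti-PD-1 tumor lay above every IgG1 tumor. Beta subunits summed to 417, 529 and 460.2 TPM under IgG1, 443, 541 and 672 under anti-PD-1, 429, 559 and 503 under DOX/IgG1 and 569, 595 and 359.8 under DOX/anti-PD-1. Group ranges overlapped for beta subunits, and DOX/anti-PD-1 replicate 3 was the lowest of all 12.

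The 19S ATPases summed to 375, 379.5 and 348 TPM in the IgG1 tumors, 441, 372 and 419 in the anti-PD-1 tumors, 381, 356 and 394 in the DOX/IgG1 tumors and 432, 376 and 300.4 in the DOX/anti-PD-1 tumors, with overlapping groups. The 19S non-ATPase subunits summed to 936, 1183 and 1064 TPM with IgG1, 1116, 1072 and 1030.5 with anti-PD-1, 1086, 1019.8 and 1164 with DOX/IgG1 and 1198, 1174 and 1239.8 with DOX/anti-PD-1. Every DOX/anti-PD-1 tumor lay above every anti-PD-1 and every DOX/IgG1 tumor, but as a share of all listed TPM they overlapped with both groups. Whether more RNA per cell or another mix of cells lies behind a level cannot be told apart in these whole-tumor libraries.

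Activators and the regulator summed to 1037, 993 and 906 TPM under IgG1, 832, 1110.3 and 1214 under anti-PD-1, 1086, 1202 and 1259 under DOX/IgG1 and 953, 1098 and 740.2 under DOX/anti-PD-1. Every DOX/IgG1 tumor lay above every IgG1 tumor in TPM, and these groups too overlapped as a share of listed TPM. Assembly factors summed to 84.7, 140.2 and 106 TPM in the IgG1 tumors, 108, 137 and 149 in the anti-PD-1 tumors, 179, 149 and 129 in the DOX/IgG1 tumors and 146, 117 and 123 in the DOX/anti-PD-1 tumors. Their highest sum came from DOX/IgG1 replicate 1, which stood apart, and the groups overlapped.

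Over all 6 roles the sum ran only from 3525.7 to 4381.1 TPM. The ratio of 20S to 19S sums ran from 0.729 in DOX/anti-PD-1 replicate 3 to 1.08 in anti-PD-1 replicate 3. DOX/anti-PD-1 replicate 3 was also the extreme tumor for beta over alpha, at 0.472, and for non-ATPase over ATPase, at 4.13. In the other tumors, those ratios lay between 0.519 and 0.750 and between 2.46 and 3.12.

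**Figure D2:**
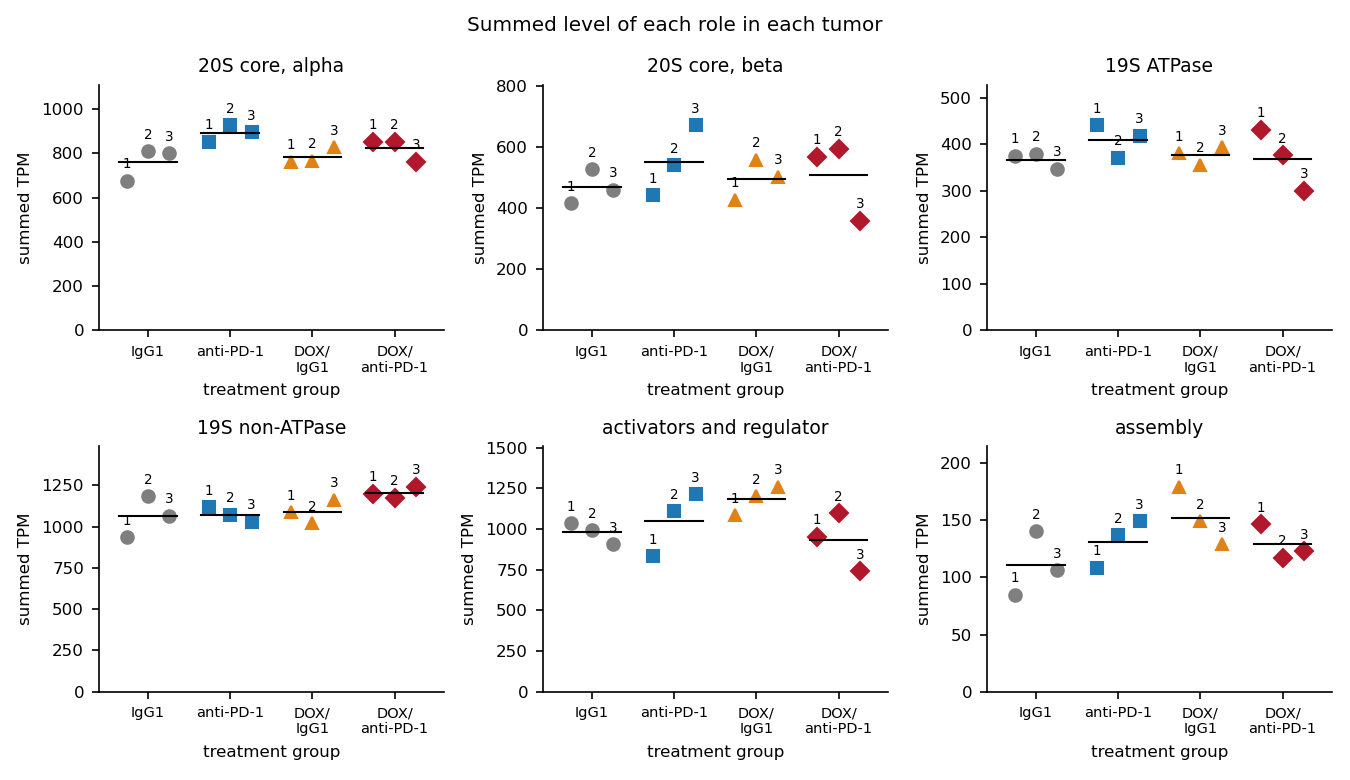
Each panel gives the summed TPM of 1 role, with 1 symbol per tumor marked by its replicate number and a line at the mean of each treatment group. The alpha sums of the anti-PD-1 tumors sit above those of the IgG1 tumors, the non-ATPase sums of the DOX/anti-PD-1 tumors sit above those of the anti-PD-1 and DOX/IgG1 tumors, and DOX/anti-PD-1 replicate 3 is lowest for beta and ATPase sums.

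For doxorubicin under the isotype antibody, DOX/IgG1 minus IgG1, differences were mostly small and without a shared direction. In limma, 0 of the 45 genes tested reached an adjusted p below 0.1, against 0.036% of 13874 genes. At an unadjusted p below 0.05 there were also 0, against 7.73%. Of the 45 genes, 27 had a higher mean after doxorubicin, against 60.6% of all genes, and the median log2 difference was 0.16, against 0.12. Groups did not overlap for 2 genes, the 19S subunit Psmd11 and the core subunit Psmb4, against 14% of all genes. Both were higher after doxorubicin, against 9.31% of all genes, and 0 were lower, against 4.64%. Under median-of-ratios scaling 1 was higher (Psmd11) and 1 lower (Psma5), against 7.05% and 7.24% of all genes. Without IgG1 replicate 1 the median for the proteasome genes was 0.0017. Without DOX/IgG1 replicate 1, 122 genes passed the threshold, 0 of them proteasome genes, and the median was 0.11.

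By role, the 6 activators and regulators were all higher in DOX/IgG1 than in IgG1, with a median log2 difference of 0.27. Of the 7 assembly factors, 5 were higher, with a median of 0.44, which became 0.11 without DOX/IgG1 replicate 1. The medians of the other roles lay near 0, at 0.02 for alpha, -0.01 for beta, -0.10 for ATPase and 0.08 for non-ATPase genes. The alpha and non-ATPase medians turned negative, to -0.09 and -0.04, under median-of-ratios scaling. When tumors were left out in turn, activators (0.16 to 0.45) and assembly factors (0.11 to 0.59) kept their direction, and each of the other medians changed sign at least once.

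That scaling bears on every doxorubicin comparison. It sets the median of all genes to 0.01 in DOX/IgG1 minus IgG1 and to -0.01 in DOX/anti-PD-1 minus anti-PD-1, from 0.12 and 0.11 in TPM as deposited. The medians of the proteasome genes moved with it, to 0.04 and -0.19.

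Doxorubicin under PD-1 blockade, DOX/anti-PD-1 minus anti-PD-1, had proteasome genes with groups apart in both directions. No gene passed the threshold in limma, 0 of 45 proteasome genes against 0% of 13736 genes. At an unadjusted p below 0.05 there were 2, Psmd2 and Psmd12, against 8.63% of all genes. With doxorubicin 20 of 45 genes were higher, against 60% of all genes, and the median log2 difference was -0.07, against 0.11. Groups did not overlap for 7 genes, against 14.9% of all genes. Of these, 3 were higher (Psmd2, Psmd8 and Psmd6), against 11.1% of all genes. The other 4 were lower (Psmd14, Psma1, Psmc6 and Psmd12), against 3.84% of all genes. Of the 7, 5 are 19S non-ATPase subunits, which thus lay on both sides. The median turned to 0.04 without DOX/anti-PD-1 replicate 3 and to 0.01 without anti-PD-1 replicate 3. Under median-of-ratios scaling 8 genes were apart, 2 higher and 6 lower, against 7.32% and 7.33% of all genes. Psmb6 and Psmd11 joined the lower genes, and Psmd6 overlapped. Scaled to the same sum, 6 were apart, 2 higher and 4 lower, against 10% and 4.78%, and Psmd6 again overlapped.

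By role, the alpha median was -0.25 and the beta and ATPase medians were both -0.11, while the non-ATPase median was 0.23 with 8 of 11 genes higher. Activators and assembly factors had medians of -0.03 and -0.01. Each of these directions held under both scaling alternatives, and the non-ATPase median then ran down to 0.11. When tumors were left out in turn, the alpha (-0.31 to -0.07) and non-ATPase (0.14 to 0.29) medians kept their direction, and the other 4 did not.

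PD-1 blockade without chemotherapy, anti-PD-1 minus IgG1, showed many small differences in the same direction. In limma 0 of 45 proteasome genes passed the threshold, against 0% of 13692 genes, and 1, Psma1, had an unadjusted p below 0.05, against 4.6%. Of the 45 genes, 36 were higher with anti-PD-1, against 47.2% of all genes, and the median log2 difference was 0.16, against -0.03. Groups did not overlap for 4 genes, against 9.88% of all genes. All 4 were higher (Psma1, Psmg2, Psmd14 and Psmd11), against 3.64% of all genes, and 0 were lower, against 6.24%. Under either scaling alternative 7 were apart, 6 higher and 1 lower (Psmd2). Against these stood 10.9% of all genes under median-of-ratios scaling (5.39% higher and 5.48% lower) and 10.6% under scaling to the same sum (4.59% higher and 6.06% lower). Leaving out 1 tumor at a time moved the median between 0.08 and 0.26, and the count of higher genes was 29 of 45 without IgG1 replicate 1, 30 without anti-PD-1 replicate 3 and 32 without IgG1 replicate 3.

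All 7 alpha subunits and all 7 assembly factors were higher with anti-PD-1, with medians of 0.16 and 0.32. Beta subunits had a median of 0.21 with 6 of 7 higher, activators 0.14 with 4 of 6, ATPases 0.10 with 3 of 6 and non-ATPase subunits 0.06 with 8 of 11. Both scaling alternatives kept these directions. When tumors were left out in turn, the ATPase median reached -0.05, the beta median ran from 0.05 to 0.23, the assembly median from 0.11 to 0.40 and the non-ATPase median from 0.02 to 0.08. The activator median was -0.18 without IgG1 replicate 1, a tumor in which Psme2b is listed at 0.

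PD-1 blockade on a doxorubicin background, DOX/anti-PD-1 minus DOX/IgG1, gave no such shared direction. In limma 0 of 45 proteasome genes passed the threshold, against 0% of 13946 genes, and 2, Psmd8 and Psmg3, had an unadjusted p below 0.05, against 4.7%. With anti-PD-1, 24 of 45 genes were higher, against 46.3% of all genes, and the median log2 difference was 0.05, against -0.04. Groups did not overlap for 5 genes, against 10.2% of all genes. Higher were 3 (Psmd8, Psmd13 and Psma5), against 4.27%, and lower were 2 (Psmc6 and Psme1), against 5.95%. The median was -0.07 without DOX/anti-PD-1 replicate 1, -0.02 without DOX/anti-PD-1 replicate 2, -0.02 without DOX/IgG1 replicate 1 and 0.05 without both tumors that stood apart.

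The role medians were -0.34 for activators, -0.26 for assembly factors, 0.12 for non-ATPase, 0.10 for alpha, 0.07 for ATPase and 0.04 for beta genes, in the same direction under both scaling alternatives. When tumors were left out in turn, the activator (-0.51 to -0.10) and non-ATPase (0.08 to 0.17) medians kept their direction, the assembly median (-0.35 to -0.0041) came close to 0, and the alpha, ATPase and beta medians changed sign. Without both tumors that stood apart, the assembly median was 0.12. The 4 pairwise comparisons share tumors, each group entering 2 of them, so their values are not independent.

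**Figure D3:**
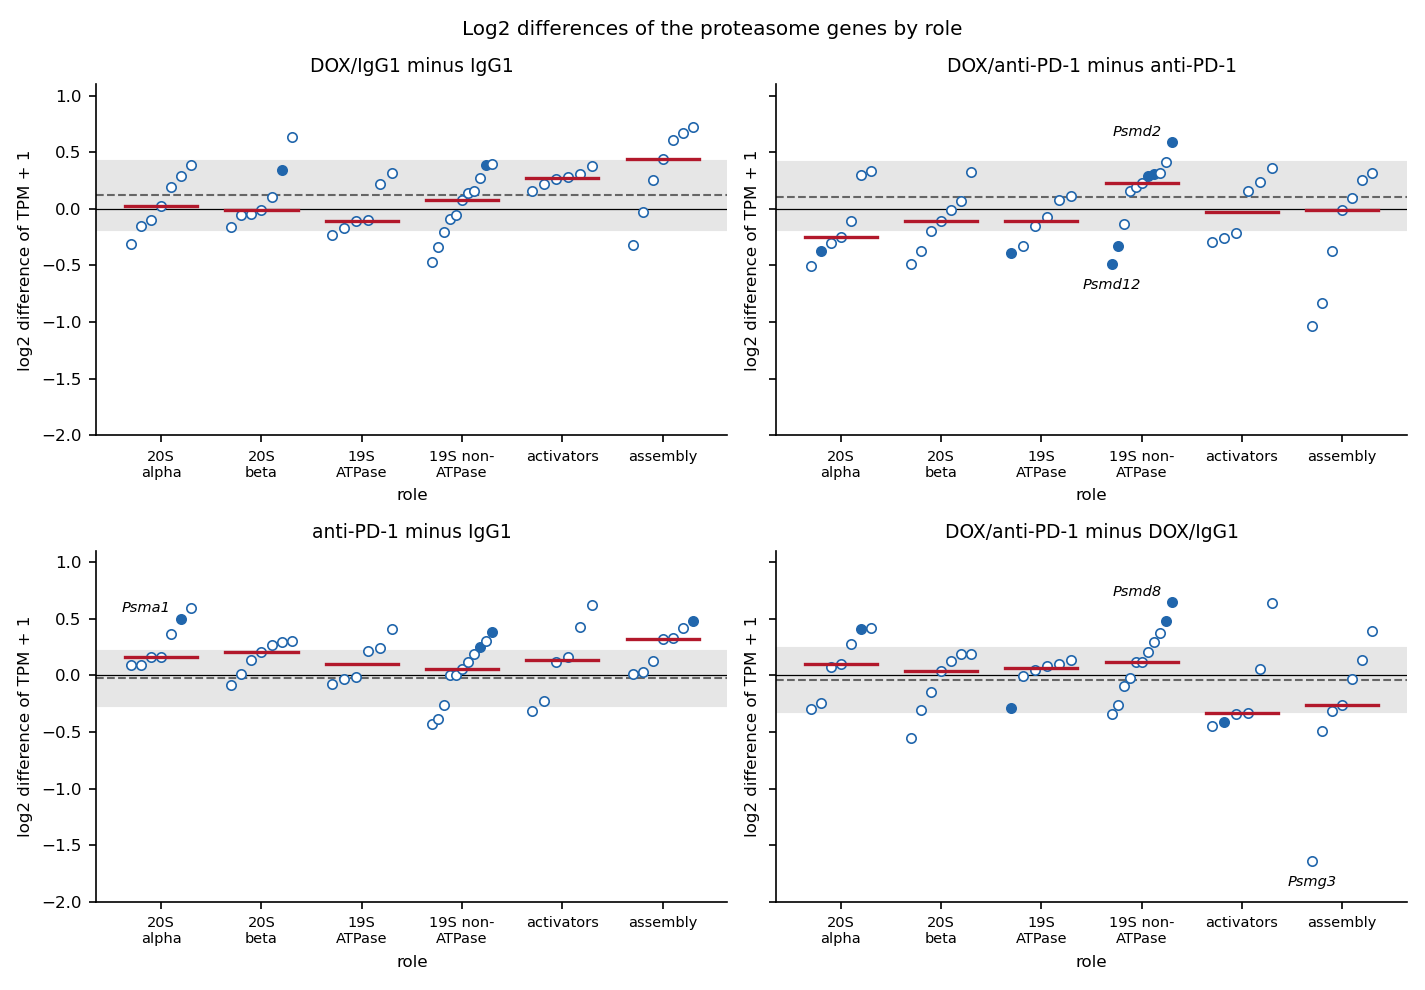
Each panel is a comparison, and each circle gives a proteasome gene's log2 difference, filled where the groups did not overlap and named where the unadjusted p was below 0.05. Red lines are role medians, the dashed line is the median and the grey band the interquartile range of all genes tested. Most circles lie inside the band.

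Fits over all 12 tumors gave the same count of 0. For doxorubicin over both antibodies, 0 of 45 proteasome genes had an adjusted p below 0.1 in limma, against 0.0204% of 14735 genes, and 1, Psmd12, had an unadjusted p below 0.05, against 12%. With doxorubicin 25 of 45 were higher, against 63.3%, and the median was 0.04, against 0.12. It turned to -0.08 under median-of-ratios scaling (19 of 45 higher) and to -0.01 under scaling to the same sum (21 of 45 higher). Without DOX/IgG1 replicate 1, 295 genes passed the threshold, 0 of them proteasome genes.

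For anti-PD-1 over both chemotherapy arms, 0 of 45 passed in limma, against 0%, and 2, Psma7 and Psma1, had an unadjusted p below 0.05, against 4.69%. Higher were 28 of 45, against 45.6%, with a median of 0.07, against -0.03. The median was 0.0066 without IgG1 replicate 1 (24 of 45 higher) and 0.14 without DOX/anti-PD-1 replicate 3 (33 of 45 higher). For the interaction, which asks whether the doxorubicin difference depends on the antibody, 0 of 45 passed in limma, against 0.00679%. An unadjusted p below 0.05 was reached by 2, Psmd14 and Psmg3, against 4.71%. The interaction was above 0 for 16 of 45, against 49.4% of all genes, with a median of -0.11, against -0.01. When tumors were left out in turn the median ran from -0.23 to -0.01, and it was -0.01 with 21 of 45 above 0 without DOX/anti-PD-1 replicate 3. All 7 beta subunits were below 0 in it, with a median of -0.14 that ran from -0.45 to -0.01 when tumors were left out in turn. The medians were -0.51 for assembly, -0.24 for activator, -0.23 for alpha and -0.01 for ATPase genes. Non-ATPase genes went the other way, with 8 of 11 above 0 and a median of 0.07 that ran from -0.03 to 0.30.

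The genes are now described by role. Values are TPM in replicate order, differences are of mean log2(TPM + 1), and positions are on GRCm38/mm10 from GENCODE vM21. The exact permutation test of 3 tumors against 3 cannot go below p = 0.1, so single genes are given with limma's values.

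Among the alpha subunits, which form the gate of the core, Psma4 was the most abundant and Psma2 the least. Psma4 (ENSMUSG00000032301, chr9:54950790-54958030) had 182, 214 and 179.5 TPM under IgG1, 231, 221 and 193 under anti-PD-1, 243, 142 and 165 under DOX/IgG1 and 209.9, 157 and 103 under DOX/anti-PD-1. Its groups overlapped, with the highest and lowest values in the 2 tumors that stood apart. Psma2 (ENSMUSG00000015671, chr13:14613240-14674236) had 39.7, 30.1 and 17.3 TPM with IgG1, 54.05, 47.1 and 29.3 with anti-PD-1, 22.5, 35.1 and 40.2 with DOX/IgG1 and 43.3, 37.2 and 24.3 with DOX/anti-PD-1. The log2 difference of anti-PD-1 minus IgG1 was 0.60, from 0.28 to 0.85 when tumors were left out in turn, and the groups overlapped.

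Psma1, another gate subunit (ENSMUSG00000030751, chr7:114264606-114276118), had 56.3, 79.7 and 74.4 TPM in the IgG1 tumors, 98.04, 97.2 and 101 in the anti-PD-1 tumors, 50.6, 91.5 and 52.7 in the DOX/IgG1 tumors and 61.6, 78.5 and 90.2 in the DOX/anti-PD-1 tumors. The anti-PD-1 tumors were the highest 3 of the 12 and lay close together, above every IgG1 and every DOX/anti-PD-1 tumor. The log2 difference of anti-PD-1 minus IgG1 was 0.50 (SE 0.22, adjusted p = 0.996). That of DOX/anti-PD-1 minus anti-PD-1 (the same anti-PD-1 tumors) was -0.38 (SE 0.22, adjusted p = 0.658).

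Psma7 (ENSMUSG00000027566, chr2:180036374-180042433), named after its values were seen, had 177, 115 and 139 TPM under IgG1, 176, 206 and 168 under anti-PD-1, 105, 93.8 and 152 under DOX/IgG1 and 198, 154 and 119 under DOX/anti-PD-1. The groups overlapped in both chemotherapy arms. The log2 difference of anti-PD-1 over both arms was 0.39 for Psma7 (SE 0.18, adjusted p = 0.999) and 0.39 for Psma1 (SE 0.18, adjusted p = 0.999).

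Among the beta subunits, Psmb5, Psmb6 and Psmb7 carry the active sites that cut proteins. Psmb5, the chymotrypsin-like subunit and main target of bortezomib (ENSMUSG00000022193, chr14:54614119-54618022), had 18.5, 33.1 and 39.6 TPM with IgG1, 28.8, 34.05 and 33.5 with anti-PD-1, 35.5, 26.4 and 25.5 with DOX/IgG1 and 49.5, 22.2 and 23.5 with DOX/anti-PD-1. Psmb6, the caspase-like subunit (ENSMUSG00000018286, chr11:70525367-70527858), had 126, 175 and 128 TPM in the IgG1 tumors, 146, 168 and 212 in the anti-PD-1 tumors, 98.2, 186 and 141 in the DOX/IgG1 tumors and 137, 165 and 83.7 in the DOX/anti-PD-1 tumors. Psmb7, the trypsin-like subunit (ENSMUSG00000026750, chr2:38588036-38644087), had 46.2, 44.4 and 46.6 TPM under IgG1, 38.3, 44.7 and 46.5 under anti-PD-1, 49.6, 33.4 and 40.99 under DOX/IgG1 and 23.8, 55.9 and 26.7 under DOX/anti-PD-1. In TPM as deposited, groups overlapped for all 3 catalytic genes in each pairwise comparison. Under median-of-ratios scaling, Psmb6 in every DOX/anti-PD-1 tumor lay below every anti-PD-1 tumor. The mean of Psmb6 (147 TPM) was far above those of Psmb5 (30.8 TPM) and Psmb7 (41.4 TPM).

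None of these catalytic genes passed the threshold. For DOX/IgG1 minus IgG1 the log2 differences were -0.01 for Psmb5, -0.04 for Psmb6 and -0.16 for Psmb7. For DOX/anti-PD-1 minus anti-PD-1 they were -0.11, -0.49 and -0.38, with SEs of 0.33, 0.29 and 0.33. Psmb8, which takes the place of Psmb5 in the immunoproteasome, had 47.2, 24.6 and 43.97 TPM in the IgG1 tumors, 43.1, 49.1 and 48.3 in the anti-PD-1 tumors, 30.4, 76.2 and 73.9 in the DOX/IgG1 tumors and 65.3, 47.6 and 43.95 in the DOX/anti-PD-1 tumors. Of Psmb8, Psmb9 and Psmb10, only Psmb9 reached an unadjusted p below 0.05 in a pairwise comparison, with a log2 difference of 0.70 for DOX/IgG1 minus IgG1 (adjusted p = 0.626).

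Psmb2, a structural beta subunit (ENSMUSG00000028837, chr4:126677630-126709714), was the least abundant constitutive beta gene, with 11.4, 26.8 and 16.5 TPM under IgG1, 13.98, 16.6 and 22.1 under anti-PD-1, 30.5, 28.5 and 23.1 under DOX/IgG1 and 20.1, 28.8 and 10.4 under DOX/anti-PD-1. DOX/IgG1 tumors lay high, but IgG1 replicate 2 fell among them. Psmb4 (ENSMUSG00000005779, chr3:94884093-94886961), named because its groups did not overlap, had 102, 90.2 and 104 TPM with IgG1, 121, 95.4 and 128 with anti-PD-1, 110.2, 126 and 141 with DOX/IgG1 and 190.4, 157 and 97.5 with DOX/anti-PD-1. Its DOX/IgG1 and IgG1 tumors no longer parted once TPM were rescaled, by either scaling alternative.

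The 2 tissue-specific core subunits were nearly absent. Psma8, known from the testis (ENSMUSG00000036743, chr18:14706151-14762301), was listed at 0 in 10 tumors, with 0.34 TPM in anti-PD-1 replicate 3 and 0.48 TPM in DOX/anti-PD-1 replicate 2. Psmb11, known from the thymic cortex (ENSMUSG00000072423, chr14:54621433-54629556), was listed at 0.52, 0.39 and 0.47 TPM in the DOX/IgG1 tumors and at 0.14 and 0.13 TPM in anti-PD-1 replicates 2 and 3. It was listed at 0 in every other tumor. Both genes fell below the limit of 1 TPM and were not tested.

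The 19S ATPases form the ring that unfolds substrates and feeds them into the core. Psmc6 (ENSMUSG00000021832, chr14:45329788-45349705) was the most abundant, with 80.7, 118 and 148 TPM under IgG1, 137, 159.5 and 153 under anti-PD-1, 131, 135 and 153 under DOX/IgG1 and 119, 126 and 98.3 under DOX/anti-PD-1. The DOX/anti-PD-1 tumors lay below every anti-PD-1 and every DOX/IgG1 tumor. The log2 differences were -0.39 (SE 0.21, adjusted p = 0.631) against anti-PD-1 and -0.29 (SE 0.21, adjusted p = 0.988) against DOX/IgG1. Psmc1 (ENSMUSG00000021178, chr12:100110154-100123405) was the least abundant ATPase, with 43.4, 39.02 and 32.7 TPM with IgG1, 49.95, 28.4 and 37.9 with anti-PD-1, 30.1, 40.7 and 31.6 with DOX/IgG1 and 57.2, 32.5 and 24.8 with DOX/anti-PD-1 and groups that overlapped throughout.

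The 19S non-ATPase subunits hold the genes whose levels differed most between groups relative to their spread. Psmd12 (ENSMUSG00000020720, chr11:107479484-107504362), a scaffold subunit of the lid, had 71.3, 74.1 and 58.6 TPM in the IgG1 tumors, 66.6, 65.8 and 70.8 in the anti-PD-1 tumors, 38.7, 49.1 and 60.2 in the DOX/IgG1 tumors and 49.3, 53.5 and 41.6 in the DOX/anti-PD-1 tumors. The 6 tumors without doxorubicin lay between 58.6 and 74.1 TPM and the 6 with it between 38.7 and 60.2 TPM, so that DOX/IgG1 replicate 3 and IgG1 replicate 3 crossed. The log2 difference for doxorubicin over both antibodies was -0.48 (SE 0.15, adjusted p = 0.243), the smallest unadjusted p of any proteasome gene in the 7 comparisons. It was -0.47 under the isotype antibody (SE 0.25, adjusted p = 0.705) and -0.49 under PD-1 blockade (SE 0.21, adjusted p = 0.571), where the groups did not overlap. The interaction was -0.02 (SE 0.31).

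Psmd2, the large scaffold of the cap's base (ENSMUSG00000006998, chr16:20651652-20663414), went the other way under PD-1 blockade. It had 163, 247 and 203 TPM under IgG1, 152, 164 and 146 under anti-PD-1, 212, 141 and 226 under DOX/IgG1 and 237, 205 and 259 under DOX/anti-PD-1. Every DOX/anti-PD-1 tumor lay above every anti-PD-1 tumor, with a log2 difference of 0.59 (SE 0.21, adjusted p = 0.504). Anti-PD-1 minus IgG1 was -0.38 (SE 0.23) and DOX/IgG1 minus IgG1 was -0.09 (SE 0.27), with overlapping groups in TPM as deposited. Under both scaling alternatives the anti-PD-1 tumors lay below every IgG1 tumor.

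Psmd8, a lid subunit (ENSMUSG00000030591, chr7:29174188-29180701), had 72.2, 71.4 and 51.1 TPM with IgG1, 63.4, 67.04 and 62.1 with anti-PD-1, 41.9, 60.4 and 50.8 with DOX/IgG1 and 72.2, 91.6 and 76.4 with DOX/anti-PD-1. The DOX/anti-PD-1 tumors lay above every DOX/IgG1 tumor and every anti-PD-1 tumor. The log2 difference was 0.65 against DOX/IgG1 (SE 0.24, adjusted p = 0.988) and 0.31 against anti-PD-1 (SE 0.21, adjusted p = 0.700). DOX/IgG1 minus IgG1 was -0.34 (SE 0.26), 1 of the lowest 2 of that comparison, with overlapping groups.

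Psmd14, the deubiquitinase that cuts ubiquitin chains off the substrate (ENSMUSG00000026914, chr2:61711694-61800376), had 89.2, 107 and 138 TPM in the IgG1 tumors, 141, 145 and 143 in the anti-PD-1 tumors, 163, 131 and 141 in the DOX/IgG1 tumors and 114, 137 and 95.2 in the DOX/anti-PD-1 tumors. The anti-PD-1 tumors were nearly equal to each other and lay above every IgG1 and every DOX/anti-PD-1 tumor. The log2 difference was 0.38 for anti-PD-1 minus IgG1 (SE 0.23, adjusted p = 0.996) and -0.32 for DOX/anti-PD-1 minus anti-PD-1 (SE 0.22, adjusted p = 0.696). It was 0.40 for DOX/IgG1 minus IgG1 (SE 0.24, adjusted p = 0.742), so that doxorubicin went with a higher level under the isotype antibody and a lower level under PD-1 blockade. The interaction was -0.72 (SE 0.31, adjusted p = 0.993).

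**Figure D4:**
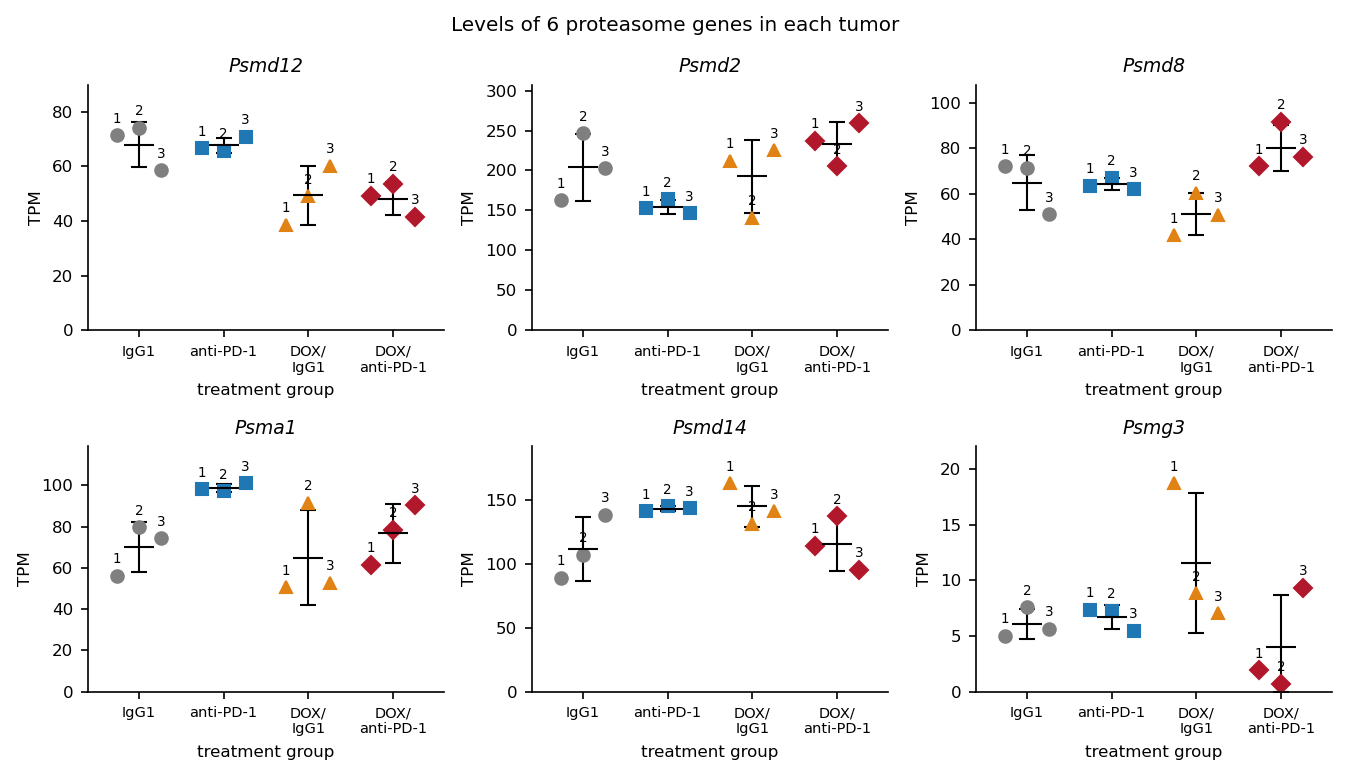
Each panel gives a gene's TPM in each tumor by treatment group, with replicate numbers, the group mean and the SD of 3 tumors. The lower bar of Psmg3 in DOX/anti-PD-1 stops at 0. Psmd12 is lower in the DOX groups, and the anti-PD-1 tumors are highest for Psma1.

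The remaining non-ATPase genes in detail are the lid's Psmd7, the ubiquitin receptor Psmd4 and Psmd3. Psmd7, the partner of Psmd14 (ENSMUSG00000039067, chr8:107580381-107588464), had 64.4, 65.97 and 55.3 TPM under IgG1, 35.7, 58.8 and 45.3 under anti-PD-1, 73.1, 56.1 and 68 under DOX/IgG1 and 54.7, 55.9 and 74.4 under DOX/anti-PD-1. Its log2 differences were -0.43 for anti-PD-1 minus IgG1 and 0.41 for DOX/anti-PD-1 minus anti-PD-1, and the groups overlapped in both. Psmd4 (ENSMUSG00000005625, chr3:95032694-95042614) had 106, 113 and 97.3 TPM with IgG1, 132, 75.2 and 67.8 with anti-PD-1, 126, 90.2 and 91.3 with DOX/IgG1 and 118, 102 and 109.8 with DOX/anti-PD-1, with groups that overlapped throughout. Psmd3, the least abundant non-ATPase gene (ENSMUSG00000017221, chr11:98682554-98695979), had 36.1, 31.1 and 36.2 TPM in the IgG1 tumors, 23.7, 42.01 and 46.4 in the anti-PD-1 tumors, 29.1, 49.5 and 38.2 in the DOX/IgG1 tumors and 42.5, 52.3 and 31.7 in the DOX/anti-PD-1 tumors, again with overlap.

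Promoters are shown for 3 genes of the cap. Psmc6 and Psmd14 were among the pairs with the highest r over the 12 tumors (0.80 after group means were removed, 0.60 under median-of-ratios scaling). Psmd12 had the smallest unadjusted p. The sequences come from RefSeq (GRCm38.p6) and hold 250 bases before and 50 after the start. They are printed 5′ to 3′ on the plus strand, which is the strand of all 3 genes. Capitals mark TGACNNNGC, the core of the antioxidant response element that Nfe2l1 is known to bind, and CGGAAGT, a core of ETS factor sites, each on either strand. The windows are chr11:107479278-107479577, chr14:45329574-45329873 and chr2:61711444-61711743.
Psmd12: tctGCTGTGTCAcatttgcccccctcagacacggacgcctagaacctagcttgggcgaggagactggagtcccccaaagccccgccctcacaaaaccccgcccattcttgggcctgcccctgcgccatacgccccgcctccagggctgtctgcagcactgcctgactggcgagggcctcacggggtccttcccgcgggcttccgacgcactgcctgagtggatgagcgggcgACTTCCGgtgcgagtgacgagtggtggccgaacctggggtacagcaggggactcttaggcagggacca
Psmc6: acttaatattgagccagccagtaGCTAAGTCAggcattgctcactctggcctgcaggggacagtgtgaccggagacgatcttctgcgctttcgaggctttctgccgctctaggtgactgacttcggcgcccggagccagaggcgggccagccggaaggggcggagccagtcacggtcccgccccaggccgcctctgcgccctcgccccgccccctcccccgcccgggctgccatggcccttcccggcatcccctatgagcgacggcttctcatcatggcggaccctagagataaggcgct
Psmd14: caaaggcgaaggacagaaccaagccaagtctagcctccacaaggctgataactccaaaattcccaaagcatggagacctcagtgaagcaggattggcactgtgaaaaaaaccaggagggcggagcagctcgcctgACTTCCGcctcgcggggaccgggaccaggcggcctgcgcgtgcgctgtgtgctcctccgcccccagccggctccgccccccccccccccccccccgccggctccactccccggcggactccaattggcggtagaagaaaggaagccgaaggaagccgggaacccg
Psmd12 holds 1 match of each motif, Psmc6 holds 1 of TGACNNNGC and Psmd14 holds 1 of CGGAAGT.

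Over all proteasome genes, 39 matched the promoter table, with 42 windows. TGACNNNGC was found in 14.3% of these windows and in 12.4% of all 32851 windows of the table. Its 6 genes were Psmb5, Psmb6, Psmc6, Psmd9, Psmd12 and Psme4. CGGAAGT was found in 35.7% against 6.42%, in 14 genes. GGGCGG, a GC box, was found in 54.8% against 35.7%, CCAAT in 33.3% against 37.4% and TATAAA in 7.14% against 13.6%. The motifs were chosen after their shares were seen, and a match describes the letters of a window, not a binding site.

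The activators open the core in place of the 19S cap, and the role also holds the regulator Psmf1. Psme1, a subunit of PA28 known to respond to interferon (ENSMUSG00000022216, chr14:55578123-55581529), was the most abundant proteasome gene, with 657, 451 and 482 TPM under IgG1, 481, 562 and 735 under anti-PD-1, 616, 619.6 and 674 under DOX/IgG1 and 561, 593 and 327 under DOX/anti-PD-1. The DOX/anti-PD-1 tumors lay below every DOX/IgG1 tumor, with a log2 difference of -0.41 (SE 0.28, adjusted p = 0.988). DOX/anti-PD-1 replicate 3, which stood apart, had the lowest value of all, and the groups of the other pairwise comparisons overlapped.

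Psme3, the nuclear PA28 gamma (ENSMUSG00000078652, chr11:101316213-101323537), had 64, 50.8 and 50.5 TPM with IgG1, 94.3, 69.5 and 62.3 with anti-PD-1, 70.6, 66.2 and 49.4 with DOX/IgG1 and 48.95, 70.98 and 74.7 with DOX/anti-PD-1. Psme4, the large activator PA200 (ENSMUSG00000040850, chr11:30771726-30880361), had 129.9, 194 and 162 TPM in the IgG1 tumors, 145, 216 and 166 in the anti-PD-1 tumors, 201, 223 and 175 in the DOX/IgG1 tumors and 107, 175 and 164 in the DOX/anti-PD-1 tumors. Groups overlapped for both genes in each pairwise comparison. For Psme4, DOX/anti-PD-1 and DOX/IgG1 overlapped only by DOX/anti-PD-1 replicate 2, which lay just above DOX/IgG1 replicate 3. Median-of-ratios scaling parted these groups, with the DOX/anti-PD-1 tumors lower.

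Psme2b (ENSMUSG00000078153, chr11:48945354-48946190) is a near copy of Psme2, so its values are uncertain, since reads of the pair could be divided between them. The listed values were 0, 11.6 and 11.1 TPM under IgG1, 6.77, 10.1 and 5.51 under anti-PD-1, 0, 14.4 and 14.8 under DOX/IgG1 and 6.6, 7.57 and 13.1 under DOX/anti-PD-1. The 2 zeros set its fitted values: the log2 difference of anti-PD-1 minus IgG1 was 0.63, and -0.58 without IgG1 replicate 1. That of DOX/anti-PD-1 minus DOX/IgG1 was 0.64, and -0.68 without DOX/IgG1 replicate 1.

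The assembly factors help the core and the cap's base to form and leave the finished complex. Psmd5, a chaperone of the base (ENSMUSG00000026869, chr2:34849734-34874968), was the most abundant, with 20.9, 40.8 and 22.4 TPM with IgG1, 14.5, 32.3 and 43.1 with anti-PD-1, 37.2, 44.5 and 42.3 with DOX/IgG1 and 34.3, 26.4 and 39.3 with DOX/anti-PD-1. The groups overlapped in each comparison, with IgG1 replicate 2 among the DOX/IgG1 tumors.

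Psmg3, a chaperone of the alpha ring (ENSMUSG00000029551, chr5:139823592-139826885), had the lowest mean and the largest coefficient of variation of the 45 genes tested, with 5.03, 7.59 and 5.66 TPM in the IgG1 tumors, 7.35, 7.28 and 5.49 in the anti-PD-1 tumors, 18.7, 8.86 and 7.04 in the DOX/IgG1 tumors and 1.93, 0.71 and 9.35 in the DOX/anti-PD-1 tumors. The highest value belongs to DOX/IgG1 replicate 1 and the lowest values to DOX/anti-PD-1 replicates 1 and 2, while DOX/anti-PD-1 replicate 3 fell among the DOX/IgG1 tumors. The log2 difference of DOX/anti-PD-1 minus DOX/IgG1 was -1.64 (SE 0.70, adjusted p = 0.988), and leaving out 1 tumor at a time gave -2.37 to -1.08. It was 0.73 for DOX/IgG1 minus IgG1 (SE 0.44), 0.34 without DOX/IgG1 replicate 1, and -1.04 for DOX/anti-PD-1 minus anti-PD-1 (SE 0.62), where leaving out 1 tumor at a time gave -1.77 to -0.48. The interaction was -1.76 (SE 0.81, adjusted p = 0.993).

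Psmg2, a further chaperone of the alpha ring (ENSMUSG00000024537, chr18:67641599-67654162), had 9.08, 10.8 and 10.2 TPM under IgG1, 11.1, 17.8 and 14.9 under anti-PD-1, 4.42, 8.16 and 12.8 under DOX/IgG1 and 14.6, 8.6 and 3.3 under DOX/anti-PD-1. Every anti-PD-1 tumor lay above every IgG1 tumor, with a log2 difference of 0.48 (SE 0.30, adjusted p = 0.996). DOX/anti-PD-1 minus anti-PD-1 was -0.83 (SE 0.47, adjusted p = 0.649), with overlap because DOX/anti-PD-1 replicate 1 was high, and leaving out 1 tumor at a time gave -1.26 to -0.33.

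Psmc3ip, the recombination factor (ENSMUSG00000019303, chr11:101091823-101095436), had 6.49, 7.27 and 4.24 TPM with IgG1, 10.6, 6.78 and 7.81 with anti-PD-1, 21.1, 7.03 and 9.08 with DOX/IgG1 and 4.33, 4.03 and 13.8 with DOX/anti-PD-1. Its highest values lay in the 2 tumors that stood apart. Its log2 differences were 0.82 for DOX/IgG1 minus IgG1 and -0.73 for DOX/anti-PD-1 minus DOX/IgG1, with overlapping groups. Without DOX/IgG1 replicate 1 these were 0.39 and -0.29.

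The proteasome genes hardly varied together from tumor to tumor. After group means were removed, the 990 pairs of 45 genes had a median Pearson r of 0.07 over 12 tumors, and 57.1% of pairs were above 0. All pairs of genes tested had a median of 0.05, with 54.3% above 0. The points are the same 12 libraries for every pair, and TPM within a library share a fixed total. Under median-of-ratios scaling the medians were 0.05 and 0.001. Pairs of the same role had a median of 0.14 and pairs of different roles 0.07. Beta subunits had a median of 0.32, with 90.5% of their 21 pairs above 0, and alpha subunits a median of -0.25. The order of the roles depended on the setting. Under median-of-ratios scaling the ATPases, at 0.27, were above the beta subunits, at 0.25, and the alpha median was -0.15. When group means were kept, the beta median was 0.25, the alpha median 0.06 and the non-ATPase median, the lowest, 0.01.

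Single pairs reached higher. They are the extremes of 990 pairs over 12 tumors, and how many pairs of other genes reach such an r was not counted. Psmb3 and Psmd3 had an r of 0.91 (0.88 when group means were kept), Psmb1 and Psme2 0.91 (0.64), Psma5 and Psme4 0.90 (0.22) and Psmb2 and Psmf1 0.89 (0.88). None of these pairs joins genes of the same role. The lowest were Psmd3 with Psmd4 at -0.86 (-0.67) and Psmb3 with Psmd4 at -0.84 (-0.77). Psmb2 had the highest mean r with the other genes, 0.24, and Psme3 the lowest, -0.20.

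**Figure D5:**
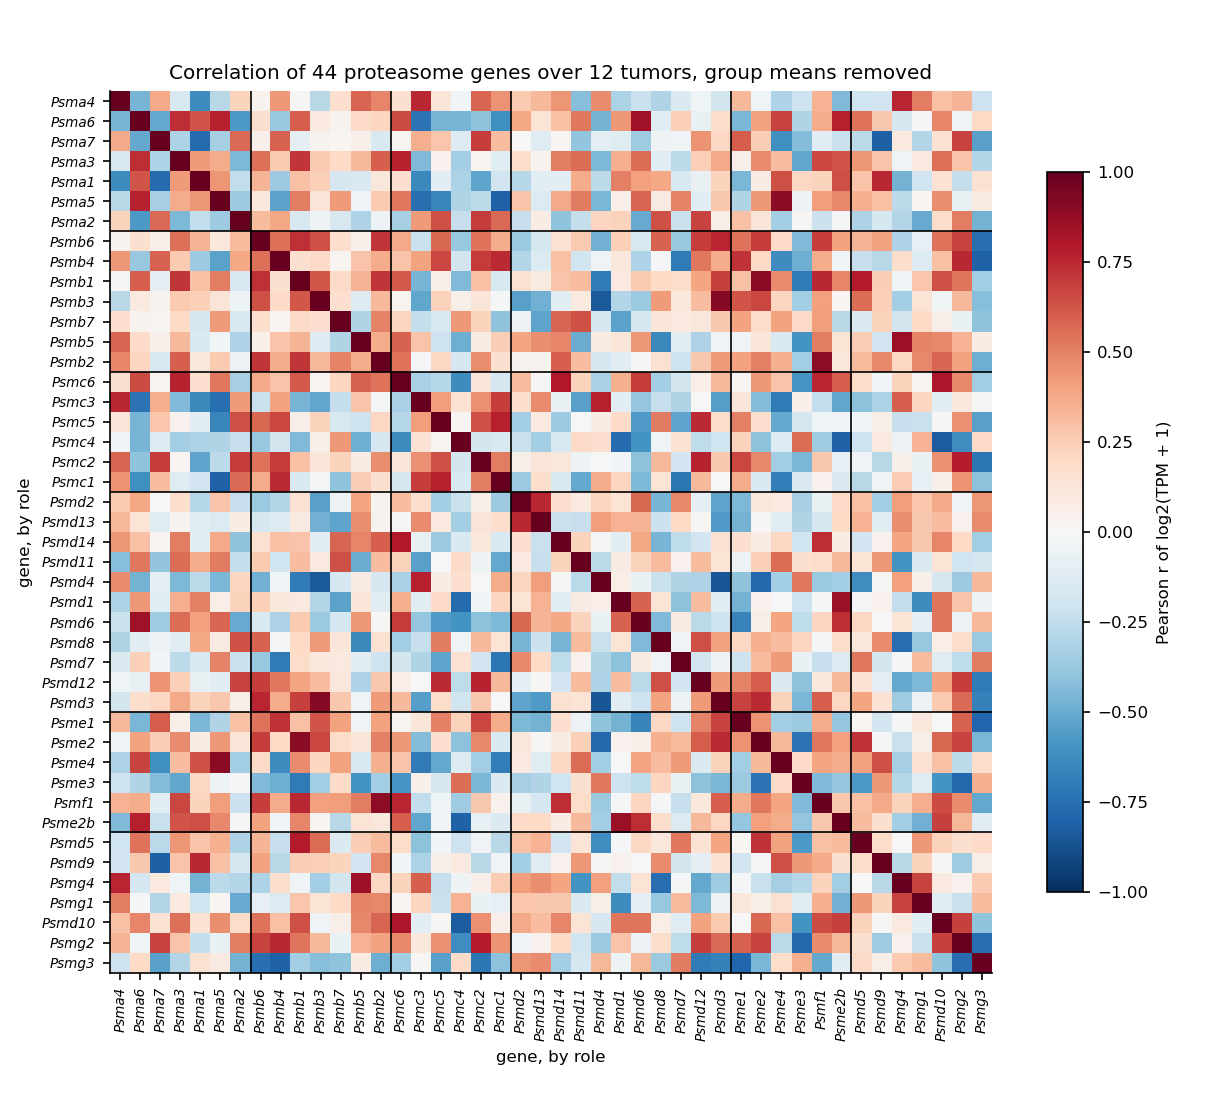
Each cell is the Pearson r of log2(TPM + 1) of 2 genes over 12 tumors after group means were removed, red above 0 and blue below, with black lines between roles. The beta block is mostly red, and the alpha block mixes both colors.

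By position the genes are spread over 16 chromosomes. The closest pairs are Psmb5 and Psmb11, 3411 bases apart on chromosome 14, and the PA28 partners Psme1 and Psme2, 5912 bases apart on the same chromosome. Psmb3 and Psmd3, the pair with the highest r, lie 969054 bases apart on chromosome 11. Psmb4 and Psmd4 lie 145733 bases apart on chromosome 3.

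Other genes of the pathway also stayed short of the threshold. None of 9 further proteasome genes, 7 genes of transcriptional control and 13 genes of ubiquitin and its delivery had an adjusted p below 0.1 in limma. The median log2 differences for DOX/IgG1 minus IgG1 were 0.02, 0.11 and -0.08 for these lists, and for DOX/anti-PD-1 minus anti-PD-1 they were -0.08, 0.22 and 0.08. For anti-PD-1 minus IgG1 they were 0.20, -0.32 (2 of 7 genes higher) and 0.04. Genes with an unadjusted p below 0.05 in 1 or more comparisons included Pomp, Ubqln4 and Ufd1l, named after their values were seen.

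Pomp, the chaperone that matures the 20S core (ENSMUSG00000029649), had 180.1, 226 and 212 TPM in the IgG1 tumors, 83.5, 222 and 244 in the anti-PD-1 tumors, 273, 268 and 283 in the DOX/IgG1 tumors and 266, 328 and 224 in the DOX/anti-PD-1 tumors. DOX/IgG1 tumors lay above every IgG1 tumor, and anti-PD-1 replicate 1 had the lowest value. The log2 difference of doxorubicin over both antibodies was 0.56 (SE 0.23, adjusted p = 0.354).

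Nfe2l1, the transcription factor known to raise proteasome genes (ENSMUSG00000038615), had 211, 198 and 198 TPM under IgG1, 170.0, 140.0 and 178 under anti-PD-1, 151, 215 and 159 under DOX/IgG1 and 197, 202 and 169 under DOX/anti-PD-1. Its anti-PD-1 tumors lay below every IgG1 tumor, with a log2 difference of -0.32 (SE 0.21, adjusted p = 0.996). Nfe2l2, the factor of the oxidative stress response (ENSMUSG00000015839), had 36.6, 39.4 and 56.4 TPM with IgG1, 40.6, 41.97 and 37.96 with anti-PD-1, 50.3, 45.7 and 45.7 with DOX/IgG1 and 33.8, 41.6 and 33.6 with DOX/anti-PD-1. DOX/anti-PD-1 tumors lay below every DOX/IgG1 tumor, with a log2 difference of -0.38 (SE 0.23, adjusted p = 0.988).

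Adrm1, a ubiquitin receptor of the cap (ENSMUSG00000039041), had 73.2, 71.4 and 93.2 TPM in the IgG1 tumors, 70.4, 79.05 and 111 in the anti-PD-1 tumors, 47.8, 102 and 103 in the DOX/IgG1 tumors and 69.3, 74.99 and 78.8 in the DOX/anti-PD-1 tumors. Vcp, the ATPase that extracts ubiquitin-marked proteins (ENSMUSG00000028452), had 175, 174 and 193 TPM under IgG1, 143, 189 and 183 under anti-PD-1, 173, 182 and 164 under DOX/IgG1 and 169.5, 208 and 149 under DOX/anti-PD-1. Groups overlapped for both genes in each pairwise comparison.

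Markers of cell types moved with the comparisons as well, and their part in the values above was not tested. In DOX/IgG1 minus IgG1, 0 of 6 proliferation markers were higher, with a median log2 difference of -0.91. In DOX/anti-PD-1 minus DOX/IgG1 6 of 6 were higher, with a median of 0.64. In anti-PD-1 minus IgG1 4 of 6 of these markers were higher (median 0.28), and in DOX/anti-PD-1 minus anti-PD-1 2 of 6 (median -0.10). Their sums, led by Top2a, were 259.6, 406 and 355 TPM in the IgG1 tumors, 369.9, 477 and 366 in the anti-PD-1 tumors, 322, 95.9 and 209 in the DOX/IgG1 tumors and 507, 408 and 169 in the DOX/anti-PD-1 tumors. DOX/IgG1 replicate 2 was lowest.

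In DOX/anti-PD-1 minus anti-PD-1, 6 of 6 adipocyte markers were higher (median 1.43) and 6 of 6 fibroblast markers (median 0.69). In anti-PD-1 minus IgG1, 0 of 6 of either list were higher (medians -0.69 and -0.24). Adipocyte markers, led by Cfd, summed to 99.3, 306 and 229 TPM with IgG1, 143, 94.9 and 159 with anti-PD-1, 168, 802 and 127 with DOX/IgG1 and 797, 277 and 222 with DOX/anti-PD-1. Fibroblast markers, led by Col1a1, summed to 1184, 1139 and 1791 TPM under IgG1, 918, 839.8 and 676 under anti-PD-1, 522, 1807 and 1279.8 under DOX/IgG1 and 1048, 1395 and 1568 under DOX/anti-PD-1. The anti-PD-1 tumors lay below every IgG1 and every DOX/anti-PD-1 tumor in the fibroblast sum.

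Of 8 luminal markers, 1 was higher in DOX/IgG1 minus IgG1 (median -0.30) and 1 in anti-PD-1 minus IgG1 (median -0.21). All 5 myoepithelial markers tested were higher in DOX/anti-PD-1 minus anti-PD-1 (median 0.47). Luminal markers, led by Epcam, summed to 3993, 2847 and 3475 TPM in the IgG1 tumors, 3144, 2466 and 2681 in the anti-PD-1 tumors, 2374, 3399 and 3873 in the DOX/IgG1 tumors and 3341, 3148 and 2436 in the DOX/anti-PD-1 tumors. Salivary gland markers, led by Amy1, summed to 5.24, 15 and 7.8 TPM with IgG1, 24.01, 4.85 and 11.1 with anti-PD-1, 60.1, 77.3 and 110.2 with DOX/IgG1 and 14.8, 14.6 and 21.8 with DOX/anti-PD-1. Bpifa2, a salivary protein, was listed at 14.4, 21.3 and 53.7 TPM in the DOX/IgG1 tumors and at 0 in the other 9. Smr3a was listed at 16.6, 10.2 and 14.8 TPM there, at 2.76 TPM in anti-PD-1 replicate 3 and at 0 in the other 8. Both had an adjusted p of 0.0334 in limma for DOX/IgG1 minus IgG1, but 0 genes passed the threshold in this comparison without IgG1 replicate 1, 2 or 3 or without DOX/IgG1 replicate 3. No gene of these lists was at 0 in every tumor.

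Leukocyte markers, led by Lyz2, summed to 468, 408 and 545 TPM under IgG1, 318, 462 and 322 under anti-PD-1, 454, 561 and 613 under DOX/IgG1 and 279, 511 and 531 under DOX/anti-PD-1. Of those tested, 7 of 8 were higher in DOX/IgG1 minus IgG1 (median 0.28), 1 of 8 in anti-PD-1 minus IgG1 (median -0.41) and 0 of 8 in DOX/anti-PD-1 minus DOX/IgG1 (median -0.32), and their part in the proteasome values was not tested either. Skeletal muscle markers, led by Acta1, summed to 96.3, 25.1 and 434 TPM in the IgG1 tumors, 414, 31.9 and 19.1 in the anti-PD-1 tumors, 39.5, 119.6 and 164 in the DOX/IgG1 tumors and 698, 0.27 and 135 in the DOX/anti-PD-1 tumors. In anti-PD-1 minus IgG1, 1 of 6 muscle markers (median -0.71) and 1 of 5 endothelial markers (median -0.22) were higher.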

How the data were processed

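Per the labels, total RNA of snap-frozen tumors was made into stranded libraries. The submitters' processing notes name STAR, RSEM and mm10, with no versions. The authors deposited log2(TPM + 1), and reversing it gave values at or near multiples of 0.01. Whole counts cannot be recovered from TPM, so the DESeq2 test used by the authors was replaced by limma 3.58.1 (R 4.3.3).

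Genes at 1 TPM or more in at least 3 tumors of a fit were tested on log2(TPM + 1) by lmFit and trended eBayes, two-sided, with Benjamini-Hochberg adjustment over all genes tested. The threshold was an adjusted p below 0.1. Pairwise comparisons used 6 tumors each. The overall and interaction fits used 12. A difference of log2(TPM + 1) understates the change of low genes. Tested on simulated data, the fit of the pairwise comparisons gave back the differences put in. It called only a small part of those at a log2 difference of 1, the smaller size simulated. In the main pairwise fits every proteasome gene but Psmg3 differed by less than that. A count of 0 therefore does not show that the genes were alike.

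The proteasome genes and the lists were chosen with earlier results of these data known. Named genes were those with the highest 2 and lowest 2 differences in each pairwise comparison, the catalytic subunits, Psmd14, Psmd4, Psme3, Psme4, genes under 1 TPM in most tumors, the highest and lowest of each role and 5 related genes. Psma1, Psma7, Psmb4 and other genes outside this rule were named after values were seen. Python 3.11.15, numpy 2.4.6, pandas 2.3.3 and matplotlib 3.10.9 made the summaries and figures.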

Additional observations from a re-analysis of the deposited data

How the results depend on the processing

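In limma, the count of proteasome genes past the threshold stayed at 0 under each alternative run. At an unadjusted p below 0.05 it was 0 to 4. Run in all 7 comparisons were a pseudocount of 0.1, no filter, a mean of at least 5 TPM and both scaling alternatives. So were no mean-variance trend, both changes of the gene list, the replicate block and leaving out each tumor. All tumors in 1 fit was an alternative for the pairwise comparisons only. The median for DOX/IgG1 minus IgG1 ran from 0.0017 to 0.16 when each tumor was left out. The count of proteasome genes with groups apart was 1 in DOX/IgG1 minus IgG1 when scaled to the same sum, against 14.2% of all genes, and 7 in anti-PD-1 minus IgG1 under either scaling, against 10.9% (median-of-ratios) and 10.6% (same sum). Leaving out each tumor moved Psme2b between -0.58 and 1.25 for anti-PD-1 minus IgG1 and between -0.68 and 1.31 for DOX/anti-PD-1 minus DOX/IgG1. Without DOX/IgG1 replicate 1 and DOX/anti-PD-1 replicate 3 together, an alternative chosen after seeing the data, the latter was -0.95. Each of these 3 reversals left out a tumor in which Psme2b is listed at 0. The causes of the other shifts were not tested. Of the role and gene differences under alternatives, 1038 values counted as unchanged. For single genes this meant the same direction, and for role medians a shift smaller than the spread between replicates. Another 6 values, all role medians, moved by more, and 3 values, all of single genes, reversed. Changes of sign were not counted for role medians, and several medians near 0 changed sign when tumors were left out. TPM hold no depth, so the counting error of low genes such as Psmg3 is not known here.

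Replicate numbers did not pair the tumors: the 18 pairs with the same number had residual correlations from -0.10 to 0.13 (median 0.02), and 36 pairs with different numbers had a median of -0.0045. With the replicate block, 0 proteasome genes passed in each comparison and the medians were as before (0.16 for DOX/IgG1 minus IgG1). All genes past the threshold numbered 2 in place of 5 for DOX/IgG1 minus IgG1, 1 in place of 3 for doxorubicin over both antibodies and 0 in place of 1 for the interaction. Scaling also moved the counts of all genes past the threshold: for doxorubicin over both antibodies they were 21 under median-of-ratios scaling and 14 when scaled to the same sum, and 16 with a mean of at least 5 TPM, in place of 3. For DOX/anti-PD-1 minus DOX/IgG1 there were 3 under either scaling in place of 0, and 65 without both tumors that stood apart. Without a mean-variance trend there were 13 in place of 5 for DOX/IgG1 minus IgG1.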
